A study of Mus musculus with 17 samples.

Results

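Transcripts of 7 genes were followed, the cardiac myosin heavy chains Myh6, Myh7 and Myh7b, the striated muscle actins Acta1 and Actc1, and the troponin I genes Tnni1 and Tnni3. They were taken by symbol from the 21798 genes measured, as the fetal and adult isoform genes of the cardiomyocyte sarcomere. RNA-sequencing libraries were made from whole apex tissue of the left ventricle of 17 young adult male C57Bl6/J mice, 3 weeks after transverse aortic constriction (TAC), which narrows the aorta and overloads the left ventricle, or Sham surgery. From week 1 the mice received 6 oral doses of 50 μg/kg 29P, an RGD mimetic that targets the αvβ3 integrin, or saline of equal volume as vehicle (Veh). The groups held 5 mice (Sham Veh), 3 mice (Sham 29P), 3 mice (TAC Veh) and 6 mice (TAC 29P), without genetic modification in any group. The questions addressed were how pressure overload altered these isoforms and whether 29P altered them in either surgery group.

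In the mouse, the ventricle before birth relies on beta myosin heavy chain (Myh7) and also expresses skeletal alpha actin (Acta1) and slow skeletal troponin I (Tnni1). The adult ventricle uses alpha myosin heavy chain (Myh6), cardiac alpha actin (Actc1) and cardiac troponin I (Tnni3). Alpha myosin hydrolyses ATP faster than beta myosin, and re-expression of the fetal myosin and actin is a widely used marker of pressure-overload hypertrophy in rodents. Myh7b is a further myosin gene of the same family, expressed at a low level in heart.

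Each of the 3 myosin genes carries a microRNA in an intron, and these are shown because they lie inside the host transcripts measured here. The microRNAs themselves were not measured, since the libraries were made from polyadenylated RNA. The mature sequences are from RefSeq (GRCm38.p6), written 5′ to 3′ with the seed (bases 2 to 8) in capitals.
mmu-miR-208a-3p, in Myh6 (chr14:54949072-54949093, minus strand): aUAAGACGagcaaaaagcuugu
mmu-miR-208b-3p, in Myh7 (chr14:54975710-54975731, minus strand): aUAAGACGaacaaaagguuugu
mmu-miR-499-5p, in Myh7b (chr2:155622893-155622913, plus strand): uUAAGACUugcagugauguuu
The microRNAs of Myh6 and Myh7 share the seed UAAGACG, which no other of the 1738 mature mouse sequences in the table carried. They differ at 3 positions, G10A, A16G and C18U, counted from the 5′ end with the miR-208a-3p base first. The microRNA of Myh7b has the seed UAAGACU, and the change inside the seed is G8U against miR-208a-3p. In the GENCODE vM21 annotation miR-208a lies in intron 29 of Myh6, miR-208b in intron 31 of Myh7 and miR-499 in intron 19 of Myh7b, in the coding transcripts that span them.

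Values are counts per 1000000 reads (CPM) as the authors deposited them, and the libraries held about 14.2 to 23.8 M reads each. The summed CPM of 8 cardiomyocyte markers was 29032 to 35437 in all libraries (ranges overlapping between Sham and TAC), as the labelled tissue would hold. In 3 libraries, Sham Veh S19 and S20 and TAC 29P S18, the summed CPM of the atrial genes Myl4, Myl7 and Sln was 1015 to 2543, against 0.352 to 5.75 in the other 14. Results are therefore also given without these 3 libraries. They also form 1 of 4 runs of the sample code, a number in the column names of the deposited values. Of the skeletal muscle markers, Myh1 was listed at 0 in 13 of 17 libraries and Mylpf did not exceed 0.847 CPM, whereas Ckm, which heart muscle also expresses, was 572 to 1403 CPM. Macrophage markers summed to 46.8 to 113 CPM in Sham and 119 to 211 CPM in TAC libraries, and 4 of 4 rose in both treatments. Red cell markers summed to 1009 to 2438 CPM in Sham Veh, 555 to 1663 CPM in Sham 29P, 3052 to 4933 CPM in TAC Veh and 1027 to 4118 CPM in TAC 29P, and with TAC 4 of 4 rose in Veh mice and none was called in 29P mice. Endothelial markers summed to 377 to 806 CPM in Sham and 680 to 1031 CPM in TAC libraries. Of these markers 1 of 4 rose in Veh and 3 of 4 in 29P mice. These counts are at a limma adjusted p of 0.05, where 22.5% of all genes rose in Veh and 31.4% in 29P mice. The endothelial count in Veh mice was near that share. Fibroblast markers summed to 666 to 1247 CPM in the 8 Sham and 1201 to 2723 CPM in the 9 TAC libraries, and the mitochondrial genome gave 29.1 to 40.01% of the CPM total in Sham and 23.6 to 29.4% in TAC libraries. The part of these shifts in the results below was not tested, and in whole tissue less RNA per cell and fewer cells of a type cannot be told apart.

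Per kilobase of its longest coding transcript, Actc1 had the highest level of the 7 genes in every group. In Sham Veh, levels per kilobase were 3801 ± 654 (SD, n = 5) for Actc1, 3312 ± 263 for Tnni3, 2351 ± 538 for Myh6, 214 ± 81.6 for Acta1, 21.8 ± 5.64 for Myh7, 7.93 ± 2.84 for Myh7b and 0.184 ± 0.160 for Tnni1. The ranges of neighbours in this order overlapped only for Actc1 and Tnni3. In TAC Veh the order changed, because Acta1 stood in second place with 2776 ± 1080 CPM per kilobase (SD, n = 3), ahead of Tnni3 with 2275 ± 159 and Myh6 with 2079 ± 259. The ranges of Acta1 and Tnni3 overlapped, as did those of Tnni3 and Myh6. Myh7, at 376 ± 135 CPM per kilobase, remained below Myh6 in every TAC Veh library.

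**Figure D1:**
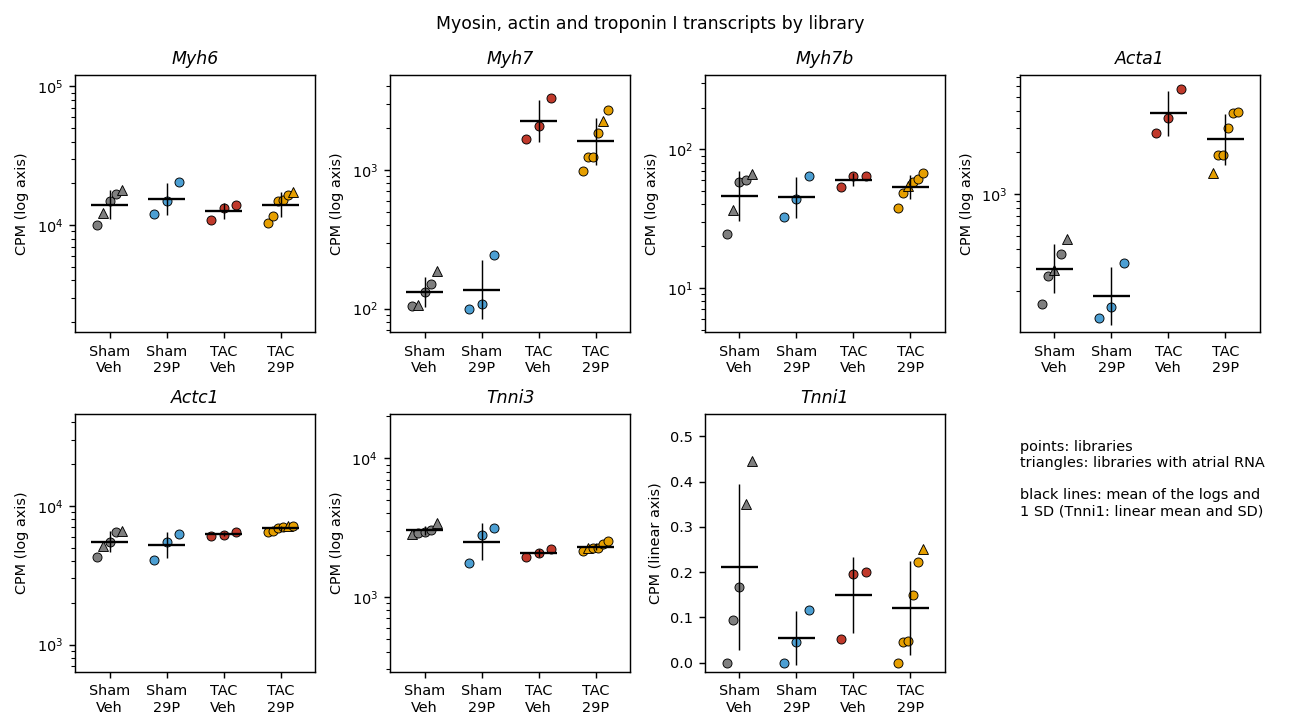
CPM of the 7 genes in each library by group, on logarithmic axes except for Tnni1; the horizontal line is the mean of the logs (linear mean for Tnni1), the vertical line 1 SD, and triangles are the 3 libraries rich in atrial transcripts. All TAC points of Myh7 and Acta1 lie above all Sham points, while those of Myh6, Myh7b, Actc1 and Tnni3 overlap.

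Of the myosin heavy chains, only Myh7 passed the test for TAC. The gene lies on mm10 chr14:54970684-54994626 on the minus strand, next to Myh6. Its level in Sham Veh was 104, 106, 131, 151 and 188 CPM, and in TAC Veh 1678, 2065 and 3292 CPM. Sham 29P libraries held 99.95, 107 and 242 CPM, and TAC 29P libraries ranged from 983 to 2710 CPM with a median of 1546. The lowest TAC library was 4.06 times the highest Sham library, so the surgery groups did not overlap. TAC raised Myh7 by a log2 fold change of 4.08 in Veh mice (standard error 0.34, limma adjusted p = 1.04e-05), a 16.97-fold difference, and by 3.55 in 29P mice (standard error 0.33, adjusted p = 2.81e-05). Among all 16218 genes tested, 22.5% were called higher and 1.91% lower in TAC Veh than in Sham Veh at an adjusted p of 0.05, and 29.8% had groups that did not overlap. For 29P mice these shares were 31.4%, 1.12% and 26.1%. The shares without overlap were counted within each treatment, and none was counted for all TAC against all Sham libraries. In either direction 24.4% were called in Veh mice and 32.5% in 29P mice. Of the 6 isoforms tested, 2 were called higher and 1 lower in Veh mice and 3 higher in 29P mice, and the same numbers at an unadjusted p of 0.05, where 37.4% of all genes were higher and 3.48% lower in Veh mice (40.9% in either direction) and 43.5% and 1.96% in 29P mice (45.5%). These shares rest on single libraries: without TAC Veh S2 the calls in Veh mice went from 3648 higher and 310 lower to 422 and 46, and without Sham 29P S14 those in 29P mice from 5097 and 181 to 1039 and 37. With the runs of the sample code as a covariate the 29P calls were 679 and 27. Ranked by log2 fold change, Myh7 stood 81st of 16218 in Veh mice and 322nd in 29P mice.

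Myh6, the predominant adult myosin (chr14:54941921-54966927, minus strand), had no difference that passed the test. It held 10019, 12184, 14820, 16788 and 18041 CPM in Sham Veh and 10928, 13253 and 13946 CPM in TAC Veh. Sham 29P libraries had 11991, 14858 and 20476 CPM and TAC 29P libraries 10367 to 17322 CPM (median 15000), so all groups overlapped. The log2 fold change with TAC was −0.15 in Veh mice (95% interval −0.61 to 0.30, limma adjusted p = 0.608) and −0.13 in 29P mice (−0.57 to 0.31, adjusted p = 0.650). These values depend on the library scaling. TMM factors, which centre the median of all genes, moved that median from 0.35 to 0.01 in Veh mice and from 0.37 to 0.01 in 29P mice, and moved Myh6 to −0.48 (adjusted p = 0.182) and −0.50 (adjusted p = 0.141). Under the same factors the calls over all genes in Veh mice went from 3648 higher and 310 lower to 653 higher and 894 lower, and in 29P mice from 5097 and 181 to 914 and 843. The changes of Myh7 were 3.75 and 3.18 with TMM factors and were called in both.

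Myh7b (chr2:155611212-155634307, plus strand) was near 50 CPM in all groups. Sham Veh libraries had 24.7, 36.3, 58.0, 59.6 and 65.8 CPM and TAC Veh libraries 53.2, 63.9 and 64.7 CPM. The spread within Sham covered all TAC values except the highest, 67.0 CPM in TAC 29P. The log2 fold change with TAC was 0.39 in Veh mice (95% interval −0.19 to 0.98, limma adjusted p = 0.291) and 0.25 in 29P mice (−0.32 to 0.82, adjusted p = 0.492), and with TMM factors the latter was −0.12.

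The Myh7 to Myh6 ratio is free of library scaling, since both genes come from the same library. Per 100 Myh6 CPM, Sham Veh libraries held 0.586, 0.885, 0.902, 1.04 and 1.54 Myh7 CPM, and TAC Veh libraries 12.03, 15.6 and 30.1. The values were 0.673, 0.894 and 1.18 in Sham 29P, and 6.62 to 26.1 with a median of 10.6 in TAC 29P. All 9 TAC libraries thus stood above all 8 Sham libraries, and the lowest TAC ratio was 4.28 times the highest Sham ratio. In mean log2 ratio, TAC exceeded Sham by 4.24 in Veh mice (exact two-sided permutation p = 0.0179, the smallest that 56 splits allow, adjusted p = 0.0446 over 15 comparisons of ratios). In 29P mice the difference was 3.68 (exact permutation p = 0.0119, the smallest that 84 splits allow, adjusted p = 0.0446). With labels exchanged only within each treatment, the joint difference was 3.96 (exact permutation p = 0.000213, the smallest that 4704 splits allow, adjusted p = 0.00159). Per length, Myh7 made up 0.962 ± 0.337% (SD, n = 5) of the Myh6 and Myh7 sum in Sham Veh, 0.891 ± 0.246% (n = 3) in Sham 29P, 15.5 ± 6.44% (n = 3) in TAC Veh and 10.95 ± 5.44% (n = 6) in TAC 29P. The sum of both genes was 14506 ± 3284 CPM in Sham Veh and 15054 ± 739 CPM in TAC Veh, so Myh6 supplied most of it in every library. This sum, unlike the ratio, depends on the library scaling and was not tested.

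The sample code in the column names of the deposited values falls into 4 runs, and the TAC and Sham ratios also stood apart within each run. The labels do not say what the runs are. For Myh7 per 100 Myh6 CPM, libraries S1 to S11 gave 0.673 to 1.04 in 3 Sham and 6.62 to 30.1 in 6 TAC libraries. In S12 to S14 the 2 Sham libraries had 0.885 and 0.894 and the TAC library 15.6, and in S15 and S16 the values were 1.18 for Sham and 12.03 for TAC. S18 to S20, the libraries rich in atrial transcripts, had 0.586 and 1.54 for Sham and 13.003 for TAC. Without those 3 libraries the log2 difference was 4.24 in Veh and 3.64 in 29P mice. Myh6 and Myh7 are close in sequence, and 22.2% of the 50-base windows of the longest Myh7 coding transcript occur identically in Myh6 transcripts, or 15.3% of the 75-base windows. How the counting divided such reads is not given in the sources used here, so low Myh7 values in Sham could include a share from Myh6. The antisense transcript Mhrt overlaps Myh7. Library preparation included a strand specificity reagent, but whether the counting used strand is not given in the sources used here.

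Among the actins, Acta1 (chr8:123891769-123894751, minus strand) rose with TAC in both treatments. Sham Veh libraries held 161, 256, 286, 369 and 473 CPM and TAC Veh libraries 2759, 3521 and 5763 CPM. Sham 29P libraries had 128, 154 and 319 CPM, and TAC 29P libraries 1418 to 3926 CPM with a median of 2456. The lowest TAC value was 3.00 times the highest Sham value. The log2 fold change was 3.72 in Veh mice (standard error 0.39, limma adjusted p = 7.25e-05) and 3.75 in 29P mice (standard error 0.38, adjusted p = 4.67e-05).

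Actc1, the adult cardiac actin (chr2:114047282-114053548, minus strand), moved far less. Its values were 4312, 5108, 5478, 6506 and 6589 CPM in Sham Veh and 6103, 6120 and 6475 CPM in TAC Veh, which lay inside the Sham range. In Sham 29P they were 4084, 5528 and 6276 CPM, all below the 6461 to 7191 CPM of TAC 29P (median 6981). The log2 fold change with TAC was 0.17 in Veh mice (95% interval −0.13 to 0.48, limma adjusted p = 0.379) and turned to −0.16 with TMM factors. In 29P mice it was 0.40 (0.10 to 0.70, adjusted p = 0.0395), just past the threshold, but it was 0.04 with TMM factors (adjusted p = 0.881) and 0.23 without the Sham 29P library S14 (adjusted p = 0.289), the shallowest with 14.2 M reads. The call was also lost when S15 of Sham 29P or S3, S8, S9, S11 or S18 of TAC 29P was left out, with adjusted p from 0.0510 to 0.0643.

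The Acta1 to Actc1 ratio separated the surgery groups, as the myosin ratio did. Per 100 Actc1 CPM, Sham Veh libraries held 3.74, 3.93, 4.34, 6.73 and 9.26 Acta1 CPM and TAC Veh libraries 42.6, 57.7 and 94.2. Sham 29P libraries had 2.31, 3.78 and 5.08, and TAC 29P libraries 19.8 to 56.0003 with a median of 35.6, so TAC and Sham did not overlap. The log2 ratio differed by 3.55 in Veh mice (exact permutation p = 0.0179, adjusted p = 0.0446) and by 3.35 in 29P mice (exact permutation p = 0.0119, adjusted p = 0.0446), and jointly by 3.45 (exact permutation p = 0.000213, adjusted p = 0.00159). Without the libraries rich in atrial transcripts these were 3.73 and 3.52. Per length, Acta1 was 5.36 ± 2.13% (SD, n = 5) of the pair in Sham Veh and 38.7 ± 9.47% (n = 3) in TAC Veh. In CPM as deposited, the actin pair, unlike the myosin pair, also rose as a sum. It was 4239 to 6875 CPM in the 8 Sham libraries and 8366 to 11883 CPM in the 9 TAC libraries. Both sums depend on the library scaling and were not tested. The actin mRNAs shared no identical 50-base window, so their reads can be told apart at that length.

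**Figure D2:**
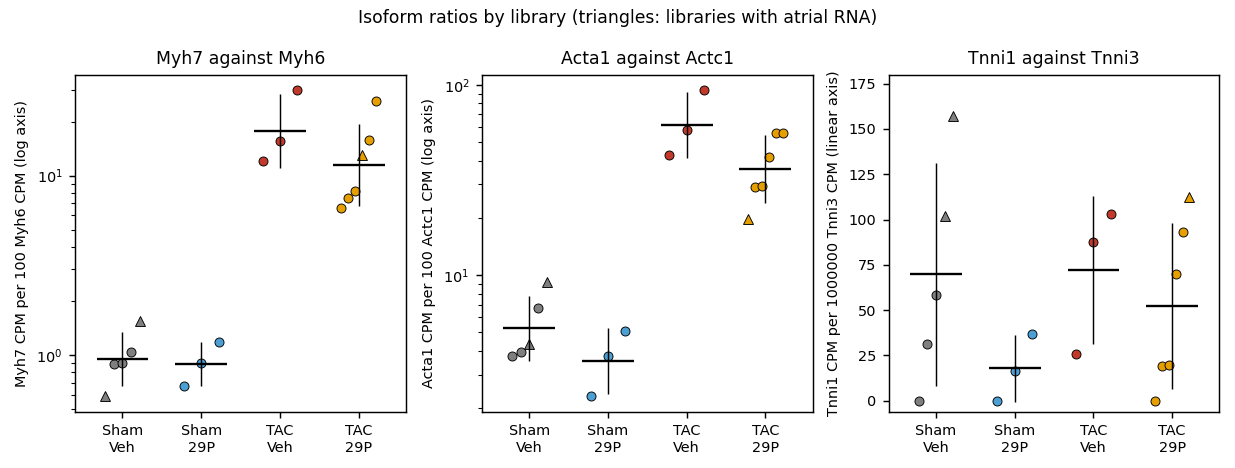
Ratios within each library by group, as Myh7 per 100 Myh6 CPM and Acta1 per 100 Actc1 CPM on logarithmic axes and Tnni1 per 1000000 Tnni3 CPM on a linear axis; lines give the mean and 1 SD (of the logs in the first and second panels) and triangles mark the 3 libraries rich in atrial transcripts. The myosin and actin ratios of all 9 TAC libraries lie above those of all 8 Sham libraries. The troponin ratio rests on at most an estimated 10 Tnni1 reads in a library.

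The bases just before the start sites of the isoform pairs are shown because the pairs moved apart: Myh7 and Acta1 rose together whereas Myh6 did not pass the test. The 250 bases upstream of each RefSeq start (GRCm38.p6) are given 5′ to 3′ on the gene's strand. Capitals mark matches on either strand to M-CAT (CATTCC, bound by TEAD factors), the CArG box (bound by serum response factor) or TATAAA, none of which overlap here. The upstream bases of the first of the 2 RefSeq starts of Myh7 are shown; those of the second held no match to M-CAT, TATAAA or the CArG box.
Acta1 (chr8:123894776-123895025, minus strand): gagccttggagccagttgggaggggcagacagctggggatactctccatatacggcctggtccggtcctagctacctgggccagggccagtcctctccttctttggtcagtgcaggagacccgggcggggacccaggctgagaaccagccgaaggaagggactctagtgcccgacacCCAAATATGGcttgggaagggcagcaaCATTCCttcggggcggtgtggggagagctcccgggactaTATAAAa
Actc1 (chr2:114052876-114053125, minus strand): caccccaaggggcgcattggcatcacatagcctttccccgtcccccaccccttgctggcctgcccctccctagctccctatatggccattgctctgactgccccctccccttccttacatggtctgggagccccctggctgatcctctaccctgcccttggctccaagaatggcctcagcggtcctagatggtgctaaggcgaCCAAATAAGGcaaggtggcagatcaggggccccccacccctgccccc
Myh7 (chr14:54994627-54994876, minus strand): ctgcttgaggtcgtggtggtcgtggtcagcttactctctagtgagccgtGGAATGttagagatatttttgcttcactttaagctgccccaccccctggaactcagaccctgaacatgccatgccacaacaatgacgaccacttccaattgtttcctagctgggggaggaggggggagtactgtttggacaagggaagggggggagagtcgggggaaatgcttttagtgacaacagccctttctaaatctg
Myh6 (chr14:54966608-54966857, minus strand): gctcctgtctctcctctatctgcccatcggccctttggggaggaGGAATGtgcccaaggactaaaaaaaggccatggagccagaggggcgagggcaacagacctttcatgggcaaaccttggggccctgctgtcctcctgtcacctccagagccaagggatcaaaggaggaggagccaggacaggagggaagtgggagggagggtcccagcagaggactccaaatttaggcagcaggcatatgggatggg
A CArG box stood 73 bases before the Acta1 start and 47 before the Actc1 start, and in no window of the other 5 genes, whereas 1.63% of 32851 promoter windows of 300 bases hold one. An M-CAT stood in the windows of Acta1, Myh7 and Myh6, at 46, 201 and 206 bases before the start, against 14.7% of all windows. These windows hold the 250 bases before and the 50 after the start. They do not cover every annotated start. In GENCODE vM21, 1 of 4 coding transcripts of Tnni3 and 1 of 2 of Actc1 started within 50 bases of the window's start. For each window of Tnni1 it was 2 of 7, so a motif absent from a window may be present at another start. TATAAA stood 7 bases before the start in Acta1 and after the start, outside the printed bases, in Myh6 (position 2) and Actc1 (position 34), against 13.6% of all windows. The commoner motifs CANNTG and GATA were found in 72.3% and 57.9% of all windows, CANNTG in those of all 7 genes, GATA in those of all except Actc1. These are matches of letters, and the genes that rose and those that did not share them.

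Of the troponin I genes, only the adult isoform was measurable. Tnni3 (chr7:4518305-4524229, minus strand) was 2841, 2873, 2913, 3048 and 3426 CPM in Sham Veh and 1939, 2059 and 2227 CPM in TAC Veh, without overlap. In Sham 29P the values were 1760, 2784 and 3163 CPM, and the lowest of these, from S14, lay below the whole TAC 29P range of 2144 to 2526 CPM (median 2253). Tnni3 fell with TAC in Veh mice by 0.54 on the log2 scale (standard error 0.14, limma adjusted p = 0.0155), the only gene of the 7 called lower. In 29P mice the log2 fold change was −0.12 (95% interval −0.41 to 0.17, adjusted p = 0.526). With TMM factors the changes were −0.87 (adjusted p = 0.00175) and −0.48 (adjusted p = 0.0347), so the 29P comparison was then called as well, and without S14 it was −0.37 (adjusted p = 0.0446). The Veh call was lost without the libraries rich in atrial transcripts (adjusted p = 0.0589) and without TAC Veh S2 (adjusted p = 0.0937). Dnaaf3 overlaps Tnni3 on the same strand.

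Tnni1 (chr1:135779434-135810989, plus strand) did not pass the filter of 0.5 CPM in 3 libraries. It had an estimated 0 to 10 reads per library, listed at 0 in Sham Veh S6, Sham 29P S14 and TAC 29P S9, and at most 0.447 CPM. Summed over groups, the estimated reads were 23 in Sham Veh, 3 in Sham 29P, 9 in TAC Veh and 14 in TAC 29P. These were 0.00698%, 0.00215%, 0.00732% and 0.00506% of Tnni3. The 3 highest libraries were S19, S20 and S18, the same that were rich in atrial transcripts, at 0.252 to 0.447 CPM against 0 to 0.224 in the other 14. With TAC, the log2 ratio of Tnni1 to Tnni3 was higher by 1.96 in Veh mice (exact permutation p = 0.786). In 29P mice it was higher by 2.22 (exact permutation p = 0.571), and jointly by 2.09 (exact permutation p = 0.322). In libraries listed at 0 this ratio is set by the constant of 0.0001. As a linear percentage of the pair, the Tnni1 share differed by 0.000241 percentage points between TAC Veh and Sham Veh (exact permutation p = 0.946). Between TAC 29P and Sham 29P it differed by 0.00346 percentage points (exact permutation p = 0.286). A small change of the fetal troponin was therefore not detectable at this depth, where 3 reads correspond to 0.126 CPM in the deepest library. Pooled over libraries, Tnni1 stood at 0.210 CPM in Sham Veh and 0.152 CPM in TAC Veh. It stood at 0.0567 CPM in Sham 29P and 0.117 CPM in TAC 29P, so a rise as large as that of Myh7 was not seen. Of the 23 estimated reads in Sham Veh, S19 held 10 and S20 held 7. Without the libraries rich in atrial transcripts, and with treatments pooled, Tnni1 was 0 to 0.168 CPM in Sham (median 0.0706). In TAC it was then 0 to 0.224 CPM (median 0.101).

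No member passed the test for 29P in either surgery group. Within TAC, 0% of all genes were called at an adjusted p of 0.05, and 1.05% and 0.931% were higher and lower at an unadjusted p of 0.05 (1.98% in either direction), while 1.83% had groups that did not overlap. Acta1 had a log2 difference of −0.62 for TAC 29P against TAC Veh (95% interval −1.41 to 0.17, limma adjusted p = 0.999998), and Myh7 of −0.49 (−1.18 to 0.20, limma adjusted p = 0.999998). Of the 6 TAC 29P libraries 3 lay below all TAC Veh libraries in Acta1, and 3 in Myh7. The remaining differences were 0.14 for Actc1, 0.15 for Myh6, −0.17 for Myh7b and 0.15 for Tnni3, and each 95% interval included 0. The Acta1 to Actc1 ratio was lower by 0.77 on the log2 scale (exact permutation p = 0.107, adjusted p = 0.230), and the Myh7 to Myh6 ratio by 0.64 (exact permutation p = 0.274, adjusted p = 0.456). As extra entries of the limma fit, the actin ratio had an unadjusted p of 0.0480 (95% interval −1.53 to −0.01) and the myosin ratio of 0.119 (−1.46 to 0.18). Without the libraries rich in atrial transcripts the actin ratio differed by −0.59 (95% interval −1.28 to 0.10). It differed by −1.10 when the runs of the sample code were a term of the model (−1.98 to −0.22). Among TAC libraries, S2 was the only Veh library in a run that also held 29P libraries. Run and treatment were thus largely confounded within TAC. The study's removal of a TAC Veh library that clustered with Sham also bears on these differences, and its part was not tested. Without TAC Veh S2, the highest TAC library in both ratios, the differences were −0.46 for the actin ratio (exact permutation p = 0.321) and −0.26 for the myosin ratio (exact permutation p = 0.786), and those of the single genes −0.33 for Acta1 and −0.21 for Myh7. With 29P in TAC mice all 4 red cell markers had negative log2 differences at an unadjusted p of 0.05, with a median log2 difference of −1.08 and none called after adjustment, and their part in these differences was not tested. The lowest actin ratio in TAC, 19.8, came from S18, one of the libraries rich in atrial transcripts.

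In Sham mice, 29P gave a log2 difference of −0.65 for Acta1 (95% interval −1.47 to 0.16, limma adjusted p = 0.709) and −0.27 for Tnni3 (−0.57 to 0.03, adjusted p = 0.685), with the other 4 genes between −0.09 and 0.13. Of all genes, 0% were called higher and 0.00617% lower, and 1.6% and 5.89% at an unadjusted p of 0.05 (7.49% in either direction), while 2.14% had groups that did not overlap. The actin ratio differed by −0.57 (exact permutation p = 0.250, adjusted p = 0.456) and the myosin ratio by −0.08 (exact permutation p = 0.821, adjusted p = 0.821). Whether the TAC effect differed between 29P and Veh mice was tested as an interaction. It was −0.54 for Myh7 (95% interval −1.53 to 0.46, limma adjusted p = 0.998) and 0.03 for Acta1 (−1.10 to 1.17, adjusted p = 0.998). The intervals of both genes are wider than 1 log2 unit. At an unadjusted p of 0.05, 1.98% of all genes were higher and 0.863% lower in the interaction (2.84% in either direction), against 1 of the 6 isoforms, Tnni3.

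**Figure D3:**
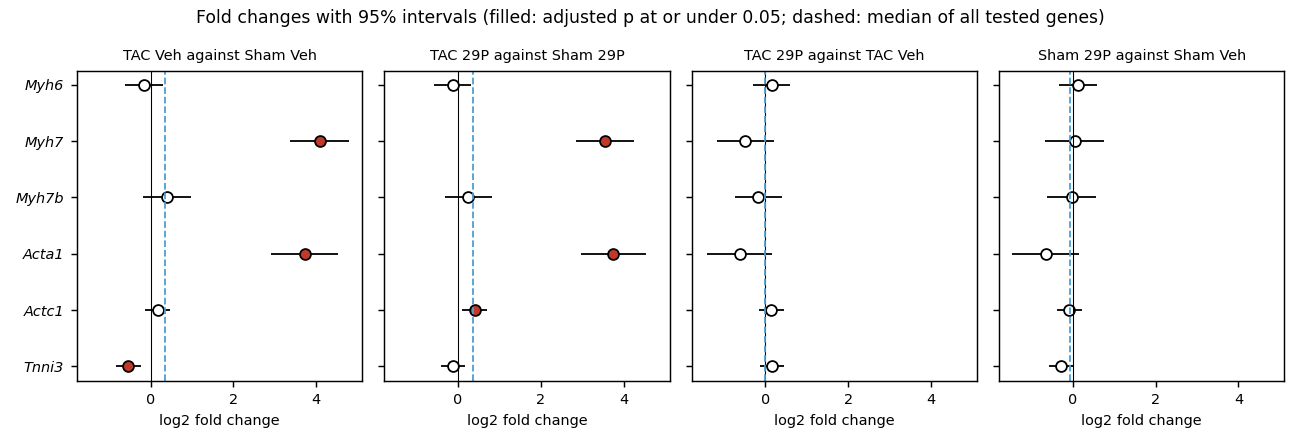
Log2 fold changes of the 6 tested genes (points) with 95% intervals (bars) in the 4 comparisons; filled points have an adjusted p at or under 0.05, and the dashed line is the median of all 16218 genes. Myh7 and Acta1 stand near 4 in both TAC comparisons, and no point is filled in the comparisons of 29P with Veh.

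Across all 17 libraries Myh7 and Acta1 correlated with r = 0.93 as log2 CPM, a value set by the distance between Sham and TAC. Within the 9 TAC libraries it was r = 0.38 (exact permutation p = 0.314, Spearman rho = 0.30, exact permutation p = 0.437), and −0.22 without the libraries S1 and S2 farthest from the median of Myh7. In the 8 Sham libraries it was r = −0.07 (exact permutation p = 0.872, Spearman rho = −0.10, exact permutation p = 0.840), and 0.31 without S15 and S19. Single animals ranked differently in the 2 genes. TAC Veh S2 was highest in both, with 3292 CPM of Myh7 and 5763 CPM of Acta1, whereas TAC 29P S18 had 2252 CPM of Myh7 but the lowest Acta1 of any TAC library, 1418 CPM. Sham 29P S15 held the highest Sham Myh7, 242 CPM, and the lowest Acta1, 128 CPM.

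Myh6 and Myh7b varied together in the Sham libraries, whereas in the TAC libraries their correlation in the deposited values did not pass adjustment. In the 8 Sham libraries r was 0.95 (exact permutation p = 0.000174, adjusted p = 0.00278 over 16 tests, Spearman rho = 0.95, exact permutation p = 0.00114, adjusted p = 0.00913), and 0.94 without S6 and S15. Among the 9 TAC libraries r was 0.70 (exact permutation p = 0.0298, adjusted p = 0.0960, Spearman rho = 0.58, exact permutation p = 0.108), and 0.39 without S2 and S3, on which it rests. Myh6 and Actc1 had r = 0.76 in Sham (exact permutation p = 0.0300, Spearman rho = 0.83, exact permutation p = 0.0154) and 0.54 in TAC (exact permutation p = 0.134, Spearman rho = 0.68, exact permutation p = 0.0503), with no adjusted p under 0.05. All points share the scaling total of their library, and the Myh6 and Myh7b value in Sham was 0.88 with TMM factors (exact permutation p = 0.00322). In TAC these factors gave 0.78 for Myh6 and Myh7b (exact permutation p = 0.0117, adjusted p = 0.0281 over 12 tests), and 0.48 without S2 and S3. For Myh6 and Actc1 they gave 0.78 in TAC (exact permutation p = 0.0109, adjusted p = 0.0281) and 0.59 in Sham (adjusted p = 0.202).

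**Figure D4:**
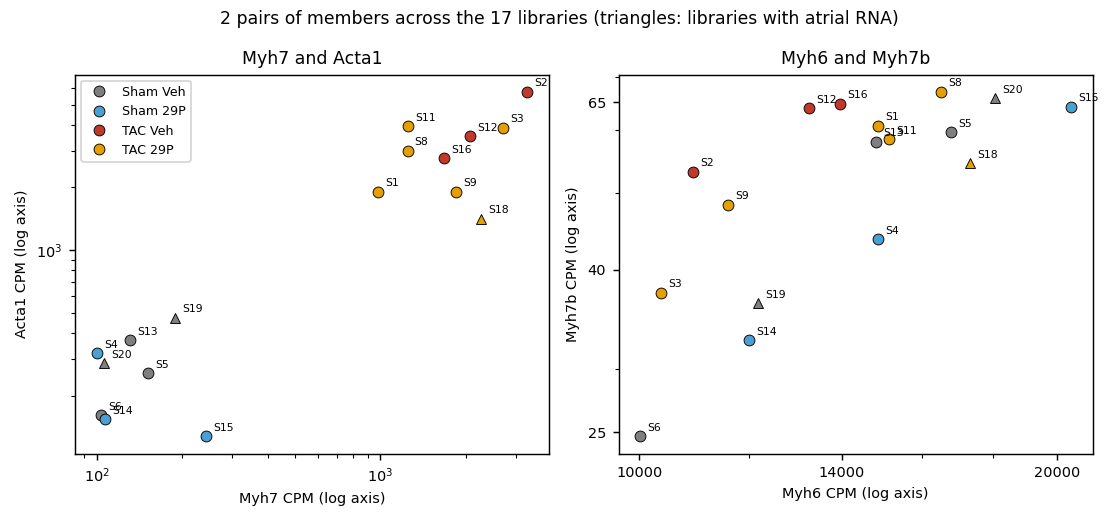
Left, Acta1 against Myh7 CPM, and right, Myh7b against Myh6 CPM, 1 point per library on logarithmic axes, coloured by group, with triangles for the 3 libraries rich in atrial transcripts. Myh7 and Acta1 form a Sham and a TAC cloud with r = −0.07 and 0.38 inside them, and Myh7b rises along Myh6 in Sham with r = 0.95.

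The genes most like each member over the 17 libraries were taken as the 3 highest Pearson correlations of log2 CPM among 14054 genes with a mean of at least 1 CPM. For Myh7 they were Serpinb1c (r = 0.97), Itih5 (r = 0.97) and Anxa4 (r = 0.96), and for Acta1 Myl12a (r = 0.97), Tbx15 (r = 0.97) and Hspb6 (r = 0.97). Myh6 was closest to Hk2 (hexokinase 2, r = 0.91), Pfkm (muscle phosphofructokinase, r = 0.86) and Tacc2 (r = 0.83), and Myh7b to Rasgrp2 (r = 0.92), Mlxip (r = 0.88) and Eif1-ps1 (r = 0.86). Actc1 was closest to Urgcp (r = 0.95), Prpf8 (r = 0.95) and Anxa6 (r = 0.94), and Tnni3 to Atp5o (an ATP synthase subunit, r = 0.95), Gm12251 (r = 0.92) and Etfb (an electron transfer flavoprotein subunit, r = 0.92). After removal of the group means the value was 0.66 to 0.82 for the neighbours of Myh7 and Acta1 and 0.81 to 0.95 for those of the other 4 genes. These are descriptions of libraries that share a scaling total, and no shared member was found between the 6 lists.

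The other sarcomere genes that were called moved by less than Myh7 and Acta1. Of 23 tested, 5 rose and 1 fell in TAC Veh against Sham Veh at an adjusted p of 0.05, where 22.5% of all genes rose and 1.91% fell, with a median log2 fold change of 0.13 against 0.35 for all genes. In 29P mice 6 rose and none fell, where 31.4% of all genes rose and 1.12% fell, with a median of 0.32 against 0.37. The shares called higher were thus near or under those of all genes. Myl4, Myl7 and Mybphl were not called in either treatment (smallest limma adjusted p = 0.0544), and they are left out of the comparison of sizes, since Myl4 and Myl7 are among the genes that defined the libraries rich in atrial transcripts and Myl7 and Mybphl were listed at 0 in some libraries. Mybpc2, fast skeletal myosin-binding protein C, rose from 13.4 to 39.6 CPM in Sham Veh to 42.1 to 65.8 CPM in TAC Veh (log2 fold change 1.255, limma adjusted p = 0.00918) and by 2.03 in 29P mice (adjusted p = 0.000886). Among the genes of the M-band and thick filament, Myom2 rose by 0.66 (adjusted p = 0.0185) and cardiac Mybpc3 by 0.57 (adjusted p = 0.0303) in Veh mice. The tropomyosin Tpm3 rose by 0.64 (adjusted p = 0.00734), and slow skeletal troponin T, Tnnt1, fell by 0.74 on the log2 scale (adjusted p = 0.0170). With TMM factors Mybpc2 and Tnnt1 were still called in Veh mice, the other 4 were not, and Tnnc1, one of those called in 29P mice, turned from 0.32 to −0.04. Without TAC Veh S2 only Myom1 (0.54 with all libraries, adjusted p = 0.00721) of the 6 called in Veh mice was called. Myom1, Tnnc1, Myl4, Myl7 and Mybphl are named after their values were seen.

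Of 12 further genes of the load-responsive fetal programme, 5 rose and none fell in Veh mice, and 6 rose and 1 fell in 29P mice, beside 22.5% and 1.91% of all genes in Veh mice and 31.4% and 1.12% in 29P mice. The stretch-responsive Xirp2 rose by 2.45 on the log2 scale (limma adjusted p = 7.25e-05) from 587 to 981 CPM in Sham Veh to 3180 to 5914 CPM in TAC Veh. Ankrd1 rose by 1.97 (adjusted p = 0.000212), the natriuretic peptide gene Nppb by 1.81 (adjusted p = 0.00101) and Fhl1 by 1.60 (adjusted p = 0.00676), the latter not called without TAC Veh S2 (adjusted p = 0.0696). Nppa, the atrial natriuretic peptide, had 2.07 in Veh mice (adjusted p = 0.0794), where Sham Veh S19 and S20 held up to 3670 CPM of it, and rose by 3.70 in 29P mice (adjusted p = 0.00624), whose Sham libraries had 130 to 136 CPM. Each of these log2 fold changes was smaller than those of Myh7 and Acta1 except that of Nppa in 29P mice, which lay between them.

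Among 23 genes known to bear on the choice of isoform, 6 rose and none fell in Veh mice, and 5 rose and 1 fell in 29P mice, shares near or under the 22.5% and 31.4% of all genes that rose, while 1.91% and 1.12% fell. Dio2, the deiodinase that makes active thyroid hormone, which favours Myh6 over Myh7 in rodents, rose by 3.19 in Veh mice (limma adjusted p = 0.00296) and by 3.72 in 29P mice (adjusted p = 0.00132). Its values were 1.85 to 4.87 CPM in Sham Veh and 13.4 to 46.3 CPM in TAC Veh. Tead1, whose product binds M-CAT, rose by 0.63 in Veh mice (adjusted p = 0.0136), Vgll4, a TEAD cofactor, by 0.79 (adjusted p = 0.0429) and Eya4 by 1.80 (adjusted p = 0.0246) from 0.224 to 0.700 CPM to 1.07 to 1.52 CPM. Of these only Dio2 was called with TMM factors or without TAC Veh S2. The thyroid hormone receptors did not pass, with 0.37 for Thra and −0.35 for Thrb. Mhrt, the antisense transcript of Myh7, had a log2 fold change of −0.42 in Veh mice (adjusted p = 0.138) and fell by 0.54 in 29P mice (adjusted p = 0.0495), opposite in sign to Myh7, and the 29P call had an adjusted p of 0.0145 with TMM factors, 0.0143 without the libraries rich in atrial transcripts and 0.0546 without TAC Veh S2, which enters that comparison only through the shared spread. Without Sham 29P S14, without Sham 29P S15 or with the run covariate, only 1 of the regulators was called in 29P mice. Dio2 and Mhrt were thus not both called in those fits. Nppa, Thra, Thrb and Mhrt were named after their values were seen.

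**Figure D5:**
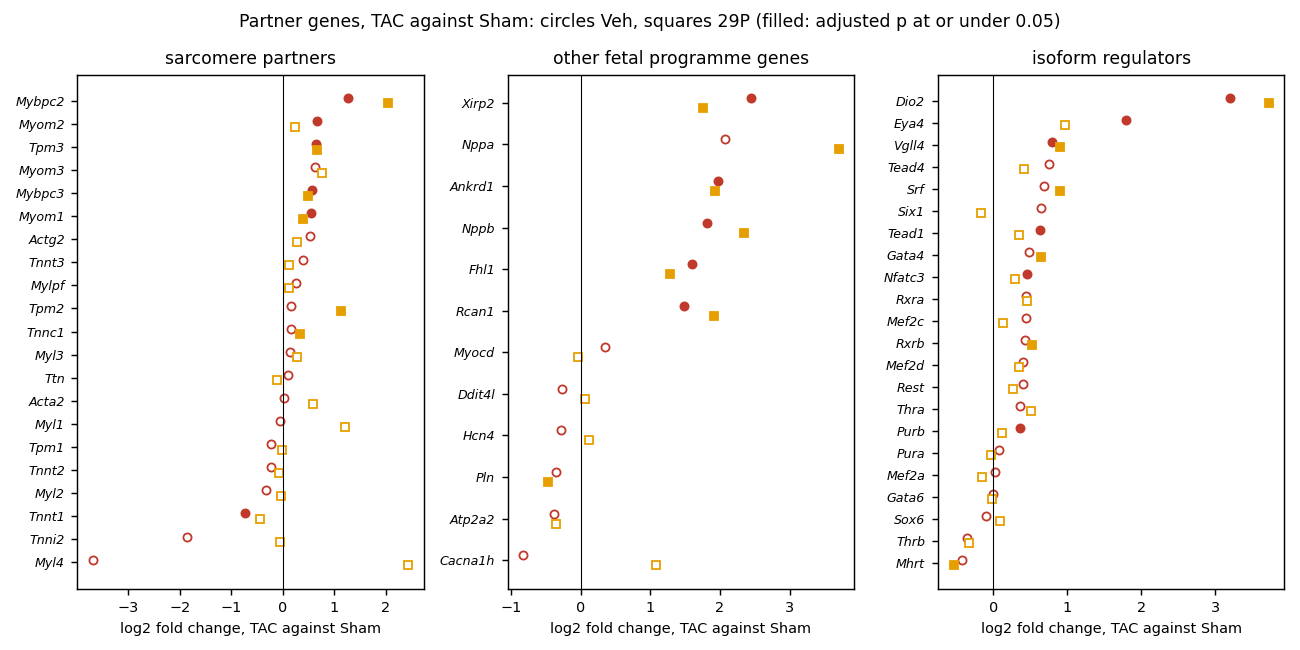
Log2 fold changes of the other genes, TAC against Sham, in Veh (circles) and 29P mice (squares), filled where the adjusted p is at or under 0.05; 3 tested genes listed at 0 in at least 1 library (Myl7, Mybphl and Dio3) are left out. Mybpc2, Xirp2, Ankrd1, Nppb and Dio2 are among the genes filled in both treatments, and of the sarcomere genes drawn Myl4 lies farthest from 0 and is not filled.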

How the data were processed

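The authors deposited counts per 1000000 reads (CPM) plus a constant of 0.0001 for 21798 genes in 17 polyA-selected left ventricular apex libraries. Alignment was to mm10, with STAR 2.3.7 and Partek software named in the submitters' processing notes. The counting tool and strand setting are not given in the sources used here. The study removed 3 further libraries, 2 for low depth and, after principal component analysis, 1 TAC Veh library that clustered with Sham; they were not analysed here, and the removal bears on every TAC Veh against Sham Veh value. Whole reads were not recovered, since 81.7 to 84.0% of low values were whole multiples of 1 read within 0.05, so no count test was run. Depth was estimated from that step. Genes with at least 0.5 CPM in 3 libraries (16218) were fitted as log2 of the deposited values with limma 3.58.1 in R 4.3.3, with 1 mean per group, a trended prior and Benjamini-Hochberg adjustment, and called at an adjusted p of 0.05. The labels list the replicates as separate samples. Ratios and correlations between genes were tested by exact two-sided permutation with scipy 1.17.1. Limma was tested on simulated data with known changes. Alternatives were other library scalings, added constants, filters, the runs of the sample code as a covariate, and left-out libraries. The named genes were the 7 members, the 3 genes most correlated with each, and up to 4 called genes each way per list. The members and lists were chosen with earlier results of these data known. Start positions, microRNAs and promoters are from RefSeq GRCm38.p6, and gene coordinates from GENCODE vM21.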

Additional observations from a re-analysis of the deposited data

Results flagged for a closer look

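Tnni3, the adult cardiac troponin I, was the only one of the 6 tested genes whose TAC effect differed between treatments at an unadjusted p of 0.05. The log2 effect of TAC was −0.54 in Veh mice and −0.12 in 29P mice, a difference of 0.423 (95% interval 0.00 to 0.84, limma adjusted p = 0.998 over all genes, so not called). Of all genes, 1.98% were higher and 0.863% lower at that unadjusted p. The Sham 29P library S14, with 1760 CPM against 2784 and 3163 CPM in the others, was the shallowest library at 14.2 M reads. Without S14 the difference was 0.17, and over all libraries left out in turn it ran from 0.17 to 0.59. In a search for single libraries far from their group, 16 groups of 5 or 6 values were examined and none was past the limit, where chance would give about 1 in 20. Groups of 3, Sham 29P with S14 and TAC Veh with S2 among them, were not examined.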

How the results depend on the processing

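Of 6 genes tested, Myh7 and Acta1 were called higher with TAC in both treatments under every alternative run. Scaling reversed several small differences that were called in no fit: with TMM and median-of-ratios factors, Actc1 in TAC Veh against Sham Veh was −0.16 and −0.15, Myh7b in TAC 29P against Sham 29P −0.12 and −0.11, and Myh7b in Sham 29P against Sham Veh 0.032 and 0.028 (0.019 on totals without mitochondrial genes, 0.034 without the atrial-rich libraries). The run covariate gave 0.011 for Myh6 in TAC 29P against Sham 29P and 0.043 for Myh7b in TAC 29P against TAC Veh. In the interaction, Acta1 was −0.0031 (TMM), −0.0032 (median of ratios), −0.66 (run) and −0.035 (without the atrial-rich libraries), Myh6 −0.0125, −0.0127, −0.00099 (without mitochondrial genes) and −0.090 (without the atrial-rich libraries), and Myh7b 0.22 (run).

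Leaving out 1 library at a time gave −0.31 to 0.075 for Myh6 and −0.37 to 0.054 for Tnni3 in TAC 29P against Sham 29P. In Sham 29P against Sham Veh it gave −0.22 to 0.091 (Actc1), −0.074 to 0.31 (Myh6), −0.36 to 0.28 (Myh7) and −0.28 to 0.21 (Myh7b), and in the interaction −0.24 to 0.43 (Acta1), −0.16 to 0.23 (Myh6) and −0.38 to 0.11 (Myh7b). For 29P in TAC it gave −0.86 to −0.33 for Acta1 and −0.70 to −0.21 for Myh7, each smallest without TAC Veh S2. The log2 ratio Myh7 to Myh6 in Sham 29P against Sham Veh ran from −0.28 to 0.12, and Tnni1 to Tnni3 from −0.25 to 2.79 (TAC Veh), −0.70 to 3.97 (TAC 29P) and −4.49 to 0.65 (Sham 29P). Genes called ran from 1 to 9 (sarcomere) and 3 to 6 (fetal programme) in TAC Veh, 2 to 8 (sarcomere) in TAC 29P, and 1 to 7 and 1 to 8 (regulators) in TAC Veh and TAC 29P. Sarcomere calls were 1 without TAC Veh S2 and 2 in 29P mice without Sham 29P S14, and fetal programme calls 3 without S2. Regulator calls were 2, 3 and 1 without S6, S19 and S2 in Veh mice. In 29P mice they were 1, 1, 3, 3 and 2 without S14, S15, S3, S9 and S11. The calls over all genes fell as well. In Veh mice 422 were higher and 46 lower without S2, 2233 and 241 without S6, and 2399 and 234 without S19. In 29P mice these were 1039 and 37 without S14, 3389 and 105 without S15, and 3202 and 80 without S3. They were 3793 and 109 without S9, and 3886 and 124 without S11. With all libraries they were 3648 and 310 in Veh and 5097 and 181 in 29P mice.

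At an unadjusted p, sarcomere calls were 10 in TAC Veh, 4 in Sham 29P and 1 in the interaction, fetal programme calls 8 in TAC Veh, 2 for 29P in TAC, 3 in Sham 29P and 1 in the interaction, regulator calls 13 in TAC Veh, 1 for 29P in TAC and 1 in Sham 29P, and 1 of the isoforms in the interaction. Beside these, 40.9% of all genes passed in either direction in TAC Veh, 1.98% for 29P in TAC, 7.49% in Sham 29P and 2.84% in the interaction. With TMM factors sarcomere calls were 2 in TAC 29P and regulator calls 3 in TAC Veh. With the run covariate sarcomere and regulator calls were 3 and 1 in TAC 29P, and without the atrial-rich libraries regulator calls were 3 in TAC Veh. With TMM factors 914 of all genes were called higher and 843 lower in TAC 29P, and 653 and 894 in TAC Veh. The run covariate gave 679 and 27 in TAC 29P, and leaving out the atrial-rich libraries gave 2171 and 152 in TAC Veh. Over all genes in TAC Veh, 684 were called higher and 863 lower with median-of-ratios factors and 1588 and 504 on totals without mitochondrial genes, and in TAC 29P 935 and 808, and 2028 and 360.

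Without the atrial-rich libraries the ratios in TAC Veh against Sham Veh were 4.24 (Myh7 to Myh6) and 3.73 (Acta1 to Actc1), each with an exact permutation p of 0.1, the smallest that 3 against 3 allows. For 29P in TAC, Acta1 to Actc1 was −0.77 in limma and −1.10 with the run covariate, although run and treatment are largely confounded in TAC. With that covariate Myh7 to Myh6 in Sham 29P against Sham Veh was 0.042. With 1 added to the CPM, Tnni1 to Tnni3 was 0.47 in TAC Veh (exact permutation p = 0.0357), 0.34 jointly (exact permutation p = 0.0157) and 0.084 in Sham 29P, values in which the added constant exceeds Tnni1. That ratio was left out of the limma alternative. With TMM factors, chosen after seeing the data, Myh6 and Actc1 had r = 0.59 in Sham (exact permutation p = 0.118, adjusted p = 0.202). In TAC the value was 0.78 (exact permutation p = 0.0109, adjusted p = 0.0281). The cause of these changes was not tested. No paired analysis was possible because the groups share no replicate numbers.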
